A study of Mus musculus with 8 samples.

Results

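Glutathione S-transferases join the tripeptide glutathione to reactive electrophiles, such as the aldehydes that arise when lipids are oxidised, and so mark them for export from the cell. The soluble enzymes fall into classes named by Greek letters, while the microsomal enzymes are an unrelated family of small membrane proteins. Many of their genes are known as targets of NRF2, a transcription factor that the cell keeps at low level until it meets oxidants or electrophiles, and some also answer to AP-1, the dimer of Fos and Jun proteins. The 10 genes described here are the Pi-class genes Gstp1, Gstp2 and Gstp3, the Mu-class genes Gstm1, Gstm2 and Gstm3, the Alpha-class gene Gsta4, the Theta-class gene Gstt1, the Omega-class gene Gsto1 and the microsomal gene Mgst1, out of 22180 genes with a symbol of their own on the array. They were chosen by their symbols with earlier results of the same arrays known, and Gstp3 was set against its relatives because of its difference between the genotypes. That difference is therefore given for all 10 genes as a description, without a test. Each of the 10 genes had 1 row of the table, so the row of highest mean was also the only one.

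The samples were pancreas of C57 BL6 mice collected 6 days after tamoxifen, which was injected into the peritoneum at 3 mg per 40 g of body weight in both groups. One group is labelled LmnaWT (called WT here, 4 arrays) and the other LmnaKO (KO, 4 arrays), and each held 3 males and 1 female, the female being replicate 4. Lmna encodes lamin A/C, a filament protein of the nuclear lamina, and the series title places its loss in acinar cells, which make the digestive enzymes. Age, and the driver of the recombinase that tamoxifen would switch on, could not be read from the labels used here. Nothing in the labels ties an array to a culture, litter or day, so p-values measure only the spread between these 8 samples.

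Values are expression on a log scale, taken as log2 from their range since no source used here states the base. A difference of 1 unit is then a doubling. A row's level depends on its probes, and levels are therefore compared between arrays of 1 gene and not between genes. No background level was at hand, so it is not known which low values lie above it. The Lmna row read 2.54 to 3.13 in WT and 2.33 to 2.73 in KO and did not pass (-0.24 ± 0.15, SE, limma adjusted p = 0.264). Where its probes lie is not known, so it does not check the labels. Markers of acinar cells were high in every array (a mean over 10 markers of 10.2 to 10.4 in WT and 9.59 to 9.77 in KO), and 4 of the 10 fell: the enzymes Prss2 and Amy2b and the transcription factors Bhlha15 and Rbpjl. Limma with Benjamini-Hochberg adjustment called 4792 of 22180 genes between the genotypes, which is 21.6%, with 14.6% higher and 6.99% lower in KO. Of the calls 67.6% were higher. When the arrays were quantile normalized once more it was 51.6%, with cyclic loess 56.4% and with median centring 82.1%. The count of calls was 3183 without KO 2, 2904 without KO 3 and 2240 without KO 4. In males alone it was 915, of which 84.2% were higher. The interquartile range of the arrays was 2.11 to 2.48 in WT and 2.88 to 3.03 in KO. The median over genes was 2.43 in the lowest array and 2.66 in the highest. The array KO 2 stood apart in markers of fat, with a mean over 4 adipocyte markers of 5.16 against 3.03 to 3.25 in the other KO arrays and 3.07 to 3.57 in WT.

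The Pi-class genes are shown first as sequence, because the window upstream of Gstp3 differs from those of the other members of its class. In the RefSeq annotation of GRCm38.p6 the genes Gstp1, Gstp2 and Gstp3 follow one another on chromosome 19. The windows below are the 250 bases upstream of each annotated start, all on the minus strand and read 5' to 3' along the gene, and RefSeq windows were found for 9 of the 10 members. They lie at chr19:4037913-4038162 for Gstp1, chr19:4042222-4042471 for Gstp2 and chr19:4059448-4059697 for Gstp3. Capitals mark every match to 3 motifs that were searched on both strands: the AP-1 site (TGANTCA), the core of the antioxidant response element to which NRF2 binds (TGACNNNGC), and the composite element of C/EBP and ATF proteins (TGATGNAA).
Gstp1: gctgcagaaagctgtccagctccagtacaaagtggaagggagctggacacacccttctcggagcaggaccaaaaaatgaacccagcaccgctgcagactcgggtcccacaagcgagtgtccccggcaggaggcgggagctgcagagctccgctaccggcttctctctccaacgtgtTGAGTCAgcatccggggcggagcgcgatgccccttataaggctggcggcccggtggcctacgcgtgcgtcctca
Gstp2: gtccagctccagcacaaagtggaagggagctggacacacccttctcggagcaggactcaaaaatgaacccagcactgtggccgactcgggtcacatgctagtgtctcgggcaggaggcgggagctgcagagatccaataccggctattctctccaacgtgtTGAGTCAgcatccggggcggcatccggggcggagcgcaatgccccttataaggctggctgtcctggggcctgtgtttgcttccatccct
Gstp3: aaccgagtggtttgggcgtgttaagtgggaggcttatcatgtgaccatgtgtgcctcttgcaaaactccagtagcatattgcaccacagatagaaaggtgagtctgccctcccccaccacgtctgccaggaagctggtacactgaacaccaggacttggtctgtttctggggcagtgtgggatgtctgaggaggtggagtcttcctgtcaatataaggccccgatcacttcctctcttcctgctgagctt

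The Gstp1 and Gstp2 windows were near copies, with 207 identical bases of 235 aligned without gaps (88.1%). Gstp3 shared 56.2% of aligned bases with Gstp1 and 56.6% with Gstp2. Among all 52 pairs of windows from different members other than Gstp1 with Gstp2, the median identity was 58.6% and the highest 65.8%, so the start of Gstp3 was no more like its neighbours' than like those of other classes. This was not particular to Gstp3. Windows of different Mu-class genes shared 53.7% to 64.4%, also within the span of pairs from different classes. Gstp1 and Gstp2 each held the same AP-1 site, TGAGTCA, at 74 to 68 and 89 to 83 bases before the start. It reads the same on both strands. No match to the 3 motifs in the forms searched lay in the Gstp3 window, which says only that these letters are not within those 250 bases. An AP-1 site was present in 6.75% of all 32851 upstream windows of that length, the antioxidant element core in 10.2% and the C/EBP-ATF element in 3.45%.

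The antioxidant element core was searched only as TGACNNNGC, and other forms of the element were not searched. With G in place of the first C, such letters do lie in the Pi-class windows: tgagtctgc in Gstp3 and TGAGTCAgc in Gstp1 and Gstp2. Of the 11 windows of the members 1 held this core, against 10.2% of all windows. It was that of Mgst1 at chr6:138140277-138140526 on the plus strand. The match lay 56 to 48 bases before the start. The window is shown because Mgst1 is among the members whose KO arrays read higher. Those of Gstp3, Gsto1 and Gstp2, which also read higher, held no TGACNNNGC, and a link with the difference was not tested.
Mgst1: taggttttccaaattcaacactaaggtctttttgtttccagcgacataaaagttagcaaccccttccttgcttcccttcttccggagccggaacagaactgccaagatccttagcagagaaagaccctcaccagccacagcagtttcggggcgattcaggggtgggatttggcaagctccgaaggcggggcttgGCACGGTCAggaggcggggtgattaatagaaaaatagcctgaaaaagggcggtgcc
The Gsto1, Gstt1 and Mu-class windows, like that of Gstp3 and a further window of Mgst1, held none of the 3 motifs. No window was found for Gsta4.

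Between the genotypes, the 10 genes did not behave as a block. The KO arrays all lay above the WT arrays for 4 of them (Gstp3, Gsto1, Mgst1 and Gstp2) and overlapped with WT for the other 6, and for 0 of the 10 did they all lie below. Across all 22180 genes, 15.3% had every KO array above every WT array and 12.1% had every KO array below. The median difference of the 10 genes was 0.01 log2 units and that of all genes was -0.06. Among the 6264 genes with a mean level of at least 4, which included 8 of the 10, the median difference was 0.44. Of the calls among those 6264 genes 89.7% were higher in KO. A larger share of those 6264 genes than of all genes was called.

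**Figure D1:**
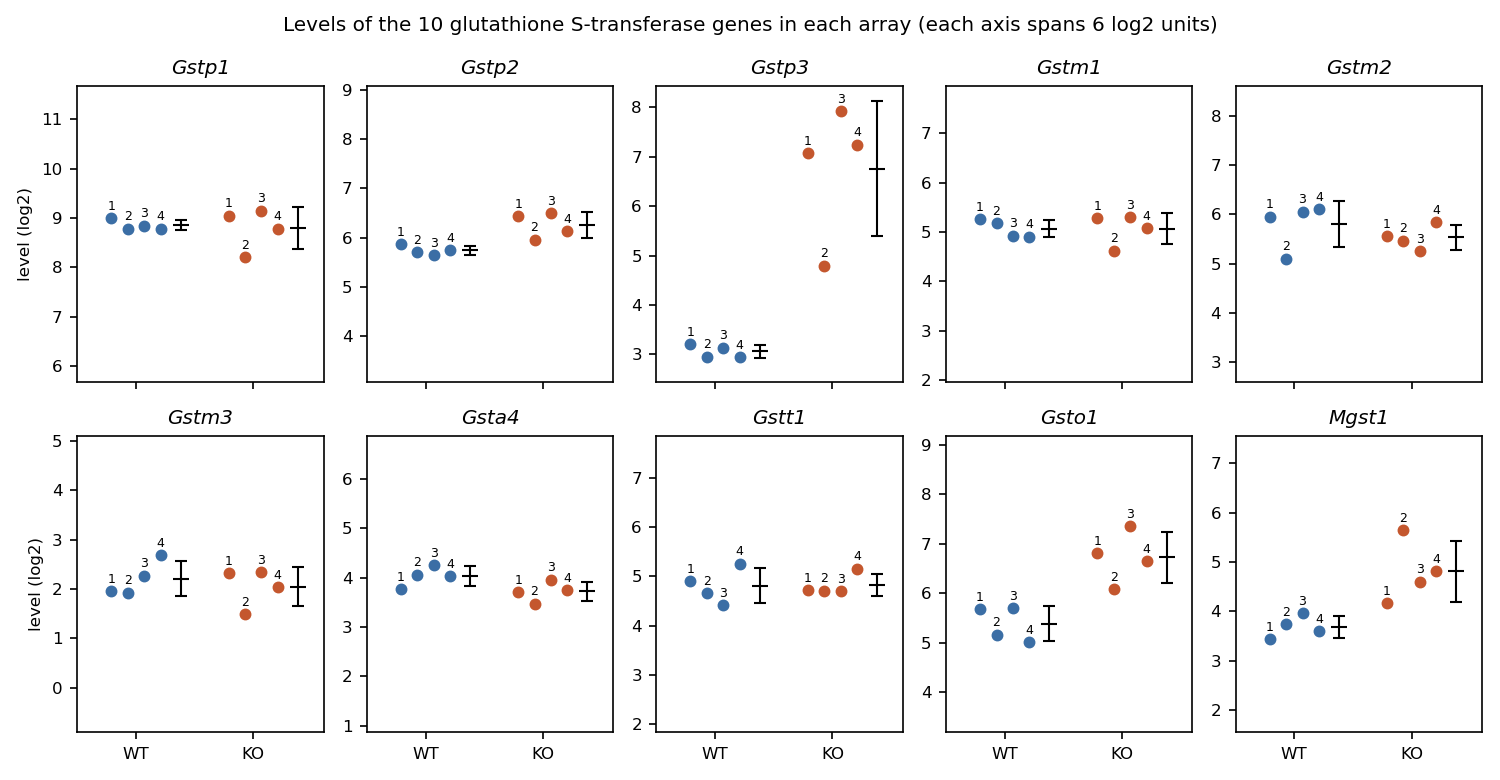
Each panel shows the log2 level of 1 gene in the 4 WT (blue) and 4 KO (orange) arrays, numbered by replicate, with the mean and SD beside each group. All panels span the same number of log2 units, and the gap between groups in Gstp3, from 3.20 in the highest WT array to 4.80 in the lowest KO array, is the widest.

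Gstp3, a Pi-class gene next to Gstp2, showed the widest difference among the members. Its levels in WT 1 to WT 4 were 3.20, 2.95, 3.14 and 2.94. Those in KO 1 to KO 4 were 7.08, 4.80, 7.93 and 7.25. The WT arrays lay close together, and the KO arrays were all higher and much more spread, with KO 2 well below the other KO arrays. The mean was 3.06 ± 0.13 in WT and 6.76 ± 1.36 in KO (SD, n = 4 each), a difference of 3.71 ± 0.54 (SE) or 13.1-fold. Only 4 of the 22180 genes, Gstp3 included, differed by this much in either direction (0.018%). Between arrays of the same replicate number the difference was 3.88, 1.85, 4.79 and 4.31, and without KO 2 the overall difference was 4.36.

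Gstp2 encodes a Pi-class enzyme, and its row read 5.87, 5.71, 5.65 and 5.75 in WT and 6.44, 5.96, 6.50 and 6.13 in KO. All KO arrays were higher, with KO 2 only just above WT 1. The difference was 0.51 ± 0.14 (SE, n = 4 each), and it came to 0.091 after repeated quantile normalization and 0.10 after cyclic loess, where the groups overlapped.

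Gstp1, a Pi-class enzyme made in many tissues, read 9.004, 8.79, 8.84 and 8.79 in WT and 9.05, 8.21, 9.15 and 8.78 in KO. The KO arrays lay on both sides of WT, with KO 2 the lowest of all 8. The difference was -0.06 ± 0.20 (SE), and it turned to 0.14 without KO 2 and to 0.03 after median centring. A further row of the table names Gstp1 and Gstp2 together and cannot be given to either. It read 8.21 to 8.54 in WT and 8.06 to 8.95 in KO, a difference of 0.19 ± 0.20. Gstp1 and Gstp2 are close copies, and probes could read both, so the split of signal between their rows is uncertain.

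Within the Pi class, then, the difference of Gstp3 exceeded that of Gstp2 by 3.20 log2 units. The order of the KO arrays was nonetheless alike. KO 3 was the highest and KO 2 the lowest in the Gstp1, Gstp2, Gstp3 and shared rows.

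**Figure D2:**
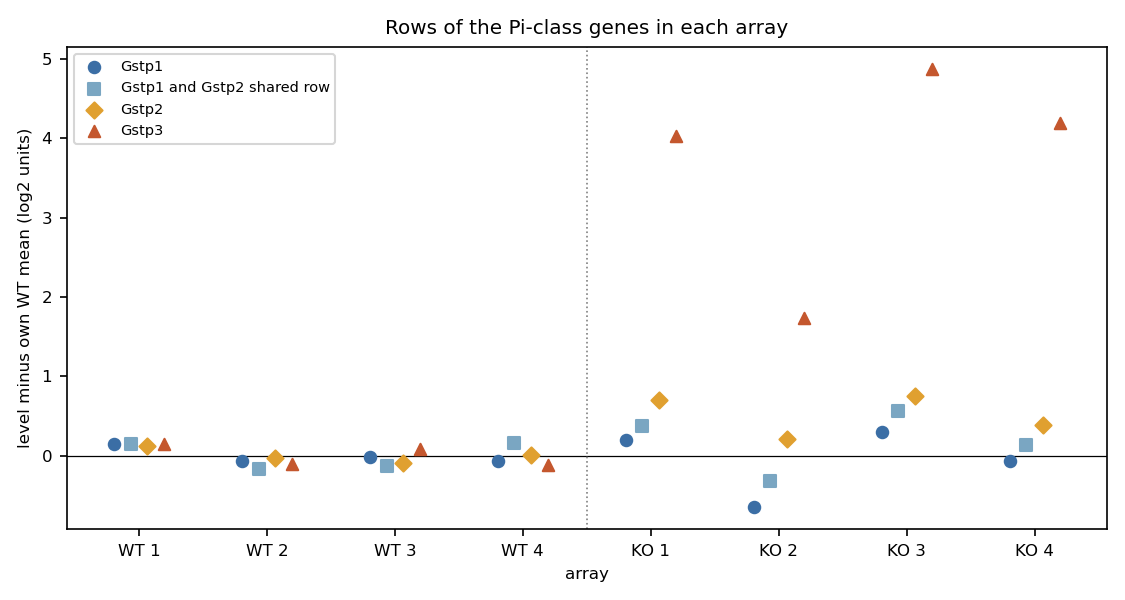
For each array the level of a Pi-class row minus the mean of that row over the 4 WT arrays is shown in log2 units, for Gstp1, the row naming both Gstp1 and Gstp2, Gstp2 and Gstp3. Gstp3 lies 1.74 to 4.87 units above its WT mean in the KO arrays, while the other rows stay between -0.65 and 0.75.

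Gsto1, an Omega-class enzyme that reduces dehydroascorbate and removes glutathione from proteins, read 5.68, 5.16, 5.69 and 5.004 in WT. In KO it read 6.82, 6.08, 7.35 and 6.65, so every KO array was above every WT array. The mean went from 5.38 ± 0.36 to 6.72 ± 0.52 (SD, n = 4 each), a difference of 1.34 ± 0.26 (SE) or 2.53-fold. The order of the KO arrays was again led by KO 3 with KO 2 last, and the difference was 1.55 without KO 2.

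Mgst1, a microsomal enzyme that also reduces lipid peroxides, read 3.44, 3.73, 3.97 and 3.60 in WT and 4.17, 5.65, 4.60 and 4.82 in KO. Here KO 2 was the highest array and KO 1 the lowest, and the groups did not overlap. The difference was 1.12 ± 0.28 (SE) or 2.18-fold, and 0.84 without KO 2. After a second quantile normalization or cyclic loess the groups of Mgst1 overlapped, while those of Gstp3 and Gsto1 still did not.

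Markers of other cells were read in the same arrays beside these genes. The 8 macrophage markers had a mean of 3.66 to 5.57 in WT and 5.22 to 6.90 in KO, and 3 of them rose (limma, adjusted over all genes), the receptors Adgre1 and Fcgr1 and the lysosomal protein Cd68. Relative to the WT mean the macrophage markers stood at 0.62, 2.27, 1.65 and 2.31 in KO 1 to KO 4, and Mgst1 at 0.48, 1.96, 0.91 and 1.13. Gsto1 stood at 1.43, 0.70, 1.97 and 1.26, and Gstp3 at 4.02, 1.74, 4.87 and 4.19. The 8 stellate and fibroblast markers had a mean of 4.56 to 5.90 in WT and 5.03 to 6.75 in KO, with 1 higher (Lum). The means of the endothelial, ductal and islet markers overlapped between the groups, with the ductal keratin Krt19 higher and Pdx1 of the islet list lower. Those of 5 hepatocyte markers read 3.01 to 3.22 in WT and 2.93 to 3.64 in KO, 0 of them called. The part of other cells in the differences of Gstp3, Gsto1 and Mgst1 was not tested. In RNA of whole tissue, fewer cells of a type and less RNA per cell cannot be told apart.

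**Figure D3:**
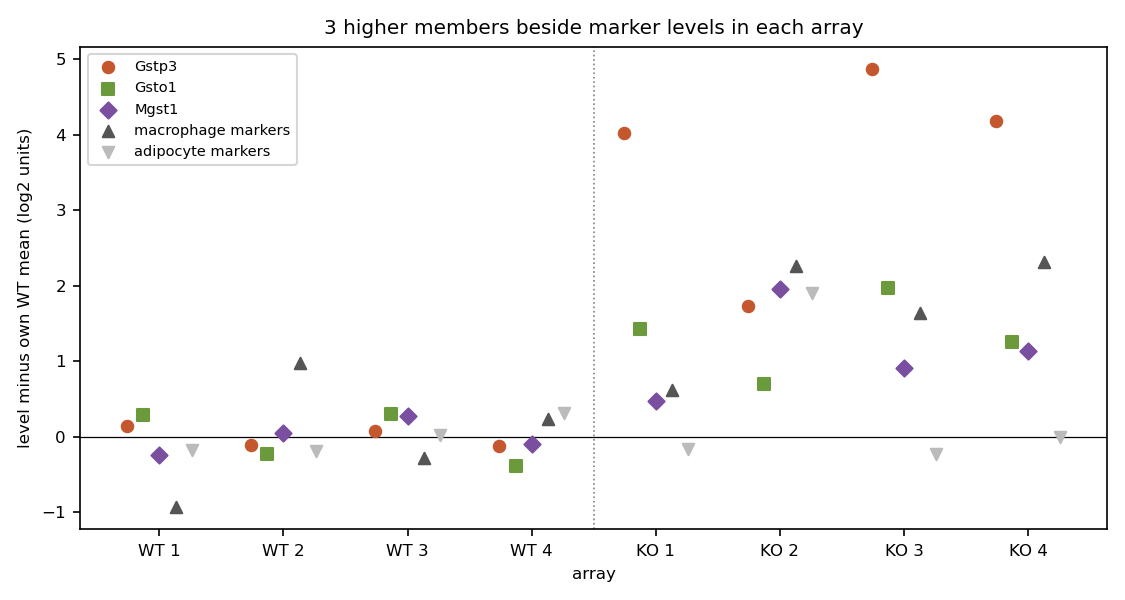
The level minus its own WT mean, in log2 units, is shown in each array for Gstp3, Gsto1, Mgst1 and the mean of the macrophage and adipocyte markers. Adipocyte markers are high in KO 2 alone (1.90), where Mgst1 is at its highest (1.96) and Gstp3 (1.74) and Gsto1 (0.70) are at their lowest among the KO arrays.

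The Mu-class genes, which lie near one another on chromosome 3 and whose enzymes act on many aromatic and unsaturated compounds, overlapped between the groups. Gstm1 read 4.90 to 5.26 in WT and 4.62 to 5.29 in KO, a difference of 0.00 ± 0.17 (SE). Gstm2 read 5.10 to 6.10 in WT and 5.25 to 5.84 in KO (-0.27 ± 0.23), with WT 2 far below the other WT arrays. Without WT 2 its difference was -0.50 and all KO arrays lay below the WT arrays. It was -0.68 both with quantile normalization repeated and with cyclic loess, where the groups overlapped. Gstm3 read 1.92 to 2.69 in WT and 1.496 to 2.34 in KO (-0.16 ± 0.23), which came to 0.00 without WT 4 and turned to 0.03 without KO 2 and 0.04 after cyclic loess. These Mu-class genes are similar in sequence, so their rows could share signal.

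Gsta4, the Alpha-class enzyme that clears 4-hydroxynonenal, read 3.76, 4.06, 4.25 and 4.02 in WT and 3.70, 3.47, 3.96 and 3.74 in KO. It was the only member lower in KO for all 4 replicate numbers, although its groups overlapped (-0.31 ± 0.15, SE). The KO arrays all lay below WT without WT 1 (-0.39), without KO 3 (-0.39), after repeated quantile normalization (-0.61) and after cyclic loess (-0.56). Gstt1, a Theta-class enzyme that acts on small halogenated compounds, read 4.42 to 5.25 in WT and 4.71 to 5.15 in KO, a difference of 0.01 ± 0.19. The directions of Gstm1 and Gstt1 depend on the scaling, since after repeated quantile normalization they were -0.43 and -0.39 and after cyclic loess -0.39 and -0.36.

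Seen array by array, 7 of the 10 members had KO 2 as the lowest and KO 3 as the highest KO array: the 3 Pi-class genes, Gstm1, Gstm3, Gsta4 and Gsto1. Over all 22180 genes 10.9% had this order. It was picked out after the values were seen and was not tested. Gstm2 had KO 3 lowest and KO 4 highest, and Gstt1 had KO 4 highest with KO 2 and KO 3 both at 4.71. Mgst1 was the member with KO 2 highest.

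Sex was not used to choose the genes and could be tested with 2 females and 6 males, genotype being a term of the fit. Both females are replicate 4, so a difference between the sexes and one between replicate 4 and the other replicates cannot be told apart. Of the 10 members 0 passed (limma, adjusted p = 0.9999 for each), and 1 was below 0.05 before adjustment. Over all genes 1 of 22180 (0.00451%) passed. The member was Gstt1, at 5.25 and 5.15 in the WT and KO female and 4.42 to 4.90 in the 6 males, with both females above all males. Its female minus male difference was 0.52 ± 0.15 (SE, limma unadjusted p = 0.00863), against a share of 2.52% of all genes below 0.05 before adjustment. The difference between genotypes did not differ detectably between the sexes for any member with 1 female per genotype (0 of 10 passed and 0 were below 0.05 before adjustment, limma). Over all genes 0.00451% passed. For Gstp3 the KO minus WT difference was larger in the female pair than in males by 0.80 ± 1.39 (SE), an interval too wide to say that the sexes were alike.

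Beyond the members, 17 of 22 further genes of the transferase families had a row of their own. Between the genotypes 1 rose and 0 fell (limma, adjusted over all genes), or 5.88% called against 21.6% of all genes. Their median difference was 0.22. With the replicate number as a block 4 passed. Gstcd, a protein with a transferase-like domain, rose by 0.42 ± 0.10 (SE, n = 4 each, limma adjusted p = 0.0217), from 2.48 to 2.61 in WT to 2.89 to 3.03 in KO. In males alone 0 passed. The Gstcd call was lost without KO 1 (0.39), without KO 2 (0.39) and without KO 4 (0.44). The block added Alox5ap, the helper protein of leukotriene synthesis (1.42, SE 0.52 without the block and 0.16 with it), and Ltc4s, the leukotriene C4 synthase (0.66, SE 0.38 and 0.20), both higher in KO. It also added Gstm7 of the Mu class (-0.80, SE 0.28 and 0.15). Their limma adjusted p-values with the block were 0.00228, 0.0465 and 0.0103. Alox5ap also passed without WT 2 (1.85) and without KO 1 (1.77), and Gstm7 without WT 2 (-1.04).

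The other genes of these families did not pass. The Alpha-class gene Gsta3 (0.89 ± 0.39) and the Theta-class genes Gstt2 (0.61 ± 0.30), Gstt3 (0.22 ± 0.29) and Gstt4 (-0.47 ± 0.17) passed without WT 1 (1.24, 0.86, 0.54 and -0.61). The prostaglandin synthases Hpgds (0.64 ± 0.30) and Ptges (0.55 ± 0.38), the mitochondrial and peroxisomal enzyme Gstk1 (0.37 ± 0.49), and Mgst2 (0.20 ± 0.13), Mgst3 (0.15 ± 0.16) and Gstm4 (0.07 ± 0.15) had positive differences in the 8 arrays. That of Gstk1 was -0.077 without WT 2 and 0.85 without WT 1, and -0.033 with cyclic loess. That of Gstm4 was -0.036 without KO 1, -0.15 with quantile normalization repeated and -0.11 with cyclic loess, and that of Mgst3 was 0.012 without WT 4. Those of Gsto2 (-0.19 ± 0.13), Gstm6 (-0.25 ± 0.20) and Gdap1 (-0.26 ± 0.20) were negative. Gsto1 and its neighbour on chromosome 19, Gsto2, thus differed by 1.34 and -0.19. All Gsto2 values lay below the lowest array median, 2.43. Gstz1 shares its row with Pomt2. That row read 3.87 to 5.99 in WT and 6.31 to 6.73 in KO (1.56 ± 0.39, SE) and cannot be given to either gene. In the other shared rows the groups overlapped. Gstm5 with 4933431E20Rik differed by 0.41 ± 0.29, and the rows naming Gsta1 and Gsta2 together by 0.16, -0.20 and -0.004.

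**Figure D4:**
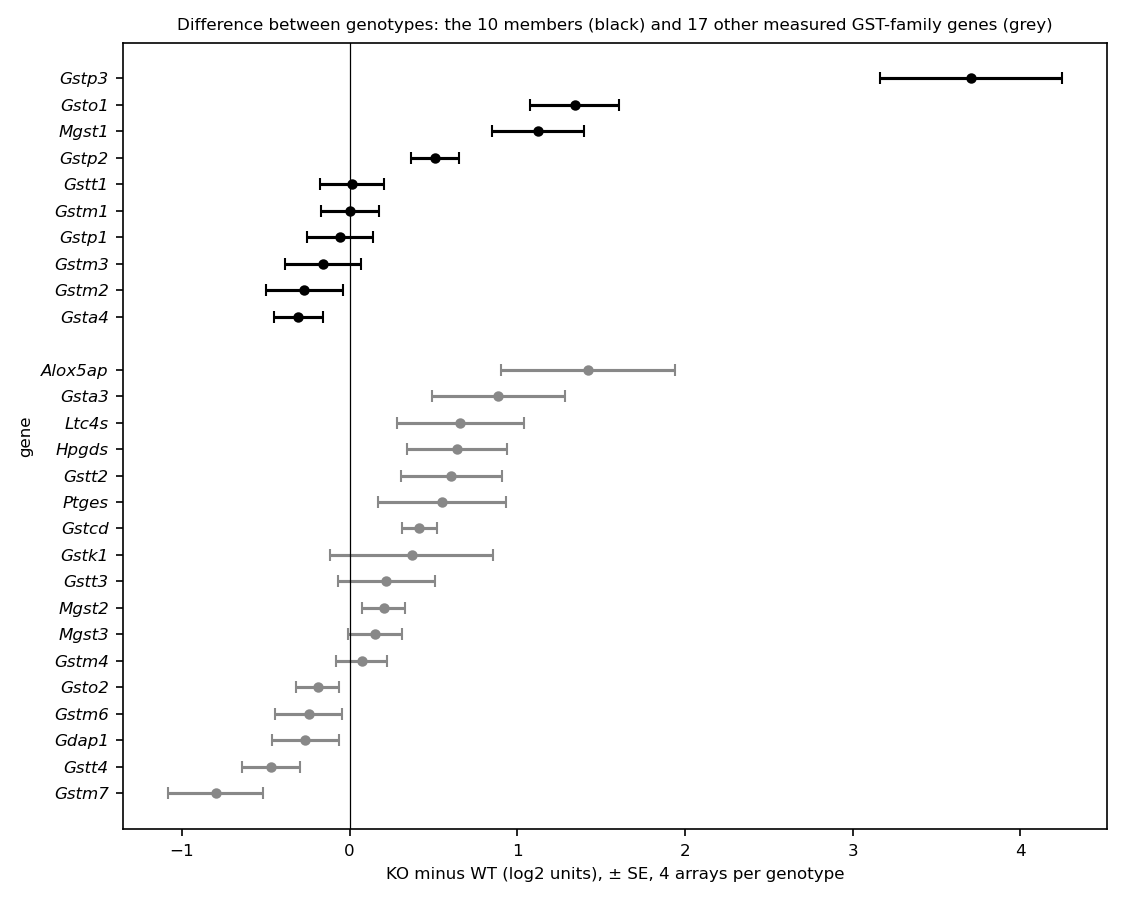
Points give the KO minus WT difference in log2 units with its SE for the 10 members (black) and the 17 further measured genes of the transferase families (grey). Gstp3 at 3.71 lies apart from all others, the next being Alox5ap at 1.42 and Gsto1 at 1.34.

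Glutathione itself is built from cysteine, glutamate and glycine. Of 16 measured genes for its synthesis and supply 0 rose and 2 fell (12.5% called, against 21.6% of all genes). The median difference was 0.28. Cbs, which commits homocysteine to cysteine synthesis, had a change of -0.93 ± 0.12 (SE, n = 4 each, limma adjusted p = 0.00204), from 7.84 to 8.04 in WT to 6.86 to 7.19 in KO. Chac2, which degrades glutathione in the cytosol, had a change of -1.18 ± 0.22 (limma adjusted p = 0.00724). The ligase subunits Gclc (0.35 ± 0.19) and Gclm (0.48 ± 0.30) and the cystine transporter Slc7a11 (0.75 ± 0.30) did not pass. Gclc, Gclm and Slc7a11 are also counted in the list of NRF2 targets given below. Without WT 1 the list held 4 calls.

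Among 15 measured genes that use or regenerate glutathione, 2 rose and 0 fell (13.3% called, against 21.6% of all genes). The median difference was 0.11. Gsr, the glutathione reductase, rose by 0.84 ± 0.21 (limma adjusted p = 0.0213), and Gpx8, a peroxidase of the endoplasmic reticulum, by 0.80 ± 0.17 (limma adjusted p = 0.0114). Both calls were lost after repeated quantile normalization (0.42 and 0.38) and after cyclic loess (0.44 and 0.41). With the groups of Gsr overlapping, its call was also lost without WT 3 (0.83), WT 4 (0.73), KO 2 (0.78) or KO 4 (0.76). The list held 3 calls without WT 1 or without KO 3, 1 without WT 3, WT 4 or KO 4, and 0 in males alone.

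Conjugates leave the cell through ABC transporters and are trimmed to mercapturic acids. Of 10 measured genes of this step 2 rose and 1 fell (30% called, against 21.6% of all genes). The median difference was 0.38. Abcc4, an exporter of organic anions, rose by 1.44 ± 0.33 (SE, limma adjusted p = 0.016), from 2.62 to 2.98 in WT to 3.68 to 5.38 in KO. Acy3, an aminoacylase that removes the acetyl group from mercapturates, rose by 1.03 ± 0.20 (limma adjusted p = 0.00907). Nat8, which adds that acetyl group, had a change of -1.73 ± 0.30 (limma adjusted p = 0.00597) and read 2.81 to 4.08 in WT and 1.48 to 2.50 in KO. Without KO 1 the list held 5 calls, and in males alone 0.

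Of 13 measured regulators of transferase genes 3 rose and 1 fell (30.8% called, against 21.6% of all genes). The median difference was 0.19. Nfe2l2, which encodes NRF2, read 5.71, 5.29, 5.14 and 5.52 in WT and 6.70, 6.93, 6.96 and 7.22 in KO. It rose by 1.54 ± 0.16 (SE, n = 4 each, limma adjusted p = 0.00115), with no overlap between the groups and with KO 2 at neither end of the KO arrays. Its partner Mafg rose by 0.57 ± 0.15 (limma adjusted p = 0.0254), a call lost without KO 2 (0.56), KO 3 (0.49) or KO 4 (0.58) and after repeated quantile normalization (0.47). Jun rose by 0.99 ± 0.29 (limma adjusted p = 0.0357), and Maff, a further NRF2 partner, changed by -0.50 ± 0.16 (limma adjusted p = 0.0495). All Maff values lay below the lowest array median, 2.43. The Jun call was lost when any array but WT 4 was left out (0.77 to 1.06), and after repeated quantile normalization (0.57) or cyclic loess (0.59). The Maff call was lost when any array but WT 1 was left out (-0.55 to -0.38), with the replicate block, with sex as a term, and after median centring (-0.41), a second quantile normalization (-0.34) or cyclic loess (-0.30). Keap1, the inhibitor of NRF2, differed by 0.07 ± 0.14 and did not pass. The list held 1 call without KO 2, without KO 3 or without KO 4, and 2 without WT 3 or without KO 1.

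Of 16 measured NRF2 targets outside the transferase family 5 rose and 1 fell (37.5% called, against 21.6% of all genes). The median difference was 0.42, against 0.44 for the 6264 genes with a mean level of at least 4. More than 21.6% of those 6264 genes were called. The shares of this list, the regulators and the export genes are therefore not read as an excess. Ephx1, a microsomal epoxide hydrolase, rose by 2.14 ± 0.23 (SE, n = 4 each, limma adjusted p = 0.00135), from 4.60 to 5.41 in WT to 6.73 to 7.64 in KO. The haem oxygenase Hmox1 rose by 2.18 ± 0.40 (limma adjusted p = 0.00698) and the malic enzyme Me1 by 2.10 ± 0.53 (limma adjusted p = 0.0223), the latter with KO 2 at 6.39 against 3.69 to 4.32 in the other KO arrays. The Me1 call was lost without WT 2 (1.90) or WT 3 (2.12). The thioredoxin reductase Txnrd1 (0.81 ± 0.13, limma adjusted p = 0.00475) and the pentose phosphate enzyme Pgd (0.98 ± 0.17, limma adjusted p = 0.00553) rose, and both calls were lost after repeated quantile normalization (0.39 and 0.56) and cyclic loess (0.41 and 0.58). Ces1g, a carboxylesterase, changed by -0.51 ± 0.15 (limma adjusted p = 0.0355). Its call was lost with the replicate block, with sex as a term, after median centring (-0.42), a second quantile normalization (-0.34) or cyclic loess (-0.32), and without WT 2, WT 3, WT 4, KO 2, KO 3 or KO 4 (-0.49 to -0.44). In males alone 1 of the 16 passed. Nqo1, often used as a readout of NRF2, read 1.70 to 2.16 in WT and 1.65 to 2.06 in KO (-0.19 ± 0.15) and did not pass. All values of Nqo1 and of Ces1g lay below the lowest array median, 2.43.

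**Figure D5:**
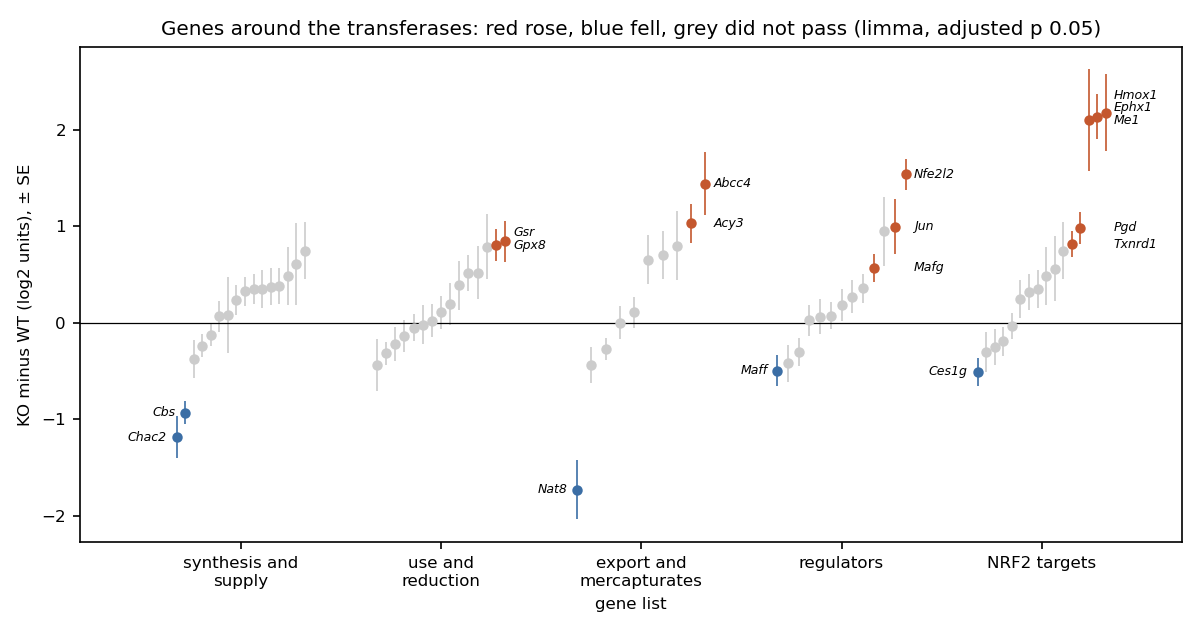
Each point is the KO minus WT difference of 1 gene in log2 units with its SE, grouped by list and ordered by size, with names for the genes that rose (red) or fell (blue) by limma. The named points farthest from 0 are Hmox1 at 2.18, Ephx1 at 2.14 and Me1 at 2.10 above and Nat8 at -1.73 below.

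The genes whose profile over the 8 arrays came nearest to that of Gstp3 were found by the root mean square distance between profiles centred on their own mean, a measure for which the median over all genes was 2.07. The nearest were the secreted protein Fetub (0.59), the hormone Fgf21 (0.65), the cell cycle inhibitor Cdkn1a (0.72), the phosphomannomutase Pmm1 (0.75) and the peroxisomal oxidase Acox2 (0.84). Fetub, for example, read 7.22, 4.38, 7.07 and 7.71 in KO 1 to KO 4 and 1.86 to 3.83 in WT. The distance takes in the genotype difference because of which Gstp3 was set against its relatives, so only genes with a large rise could come near. The KO minus WT differences of the 5 nearest genes were 2.50 to 3.71. Of the other members Gsto1 lay at 1.31 and Gstp2 at 1.75, which are ranks 103 and 2715 among all genes.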

How the data were processed

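The 8 arrays stand in 1 table of 41345 rows that the authors deposited. Per the labels' protocols, 100 ng of total RNA went into a whole-transcript labelling kit. The tools named per the submitters' processing notes are oligo, limma and RMA, a method that includes background correction, quantile normalization and probe summary. The deposited values fit a log2 scale by their range, with the log base and the build of the array design not given in the sources used here.

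Rows were named through the platform annotation: 23521 had 1 symbol, 1814 several and 16010 none, and 23328 of the first had an Entrez identifier in RefSeq's GRCm38.p6 table. The row of highest mean was kept for each of 22180 genes, with no filter on low values. Genotype was fitted over the 8 arrays with lmFit and eBayes of limma 3.58.1 (R 4.3.3). P-values were adjusted for all genes tested by Benjamini-Hochberg and called at 0.05. Differences are KO minus WT. The fit was tested on simulated data. Upstream windows were aligned globally with Biopython 1.88. The number of arrays limits the precision.

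The members, lists and tests were chosen with earlier results of these data known. Alternatives were the replicate block, sex as a term, males only, leaving out each array, other scalings, a level minimum of 4, other row choices and eBayes with trend. Named were all members, the measured genes of the related transferase list, up to 5 genes of smallest p per list and direction, and the 5 profiles nearest to Gstp3. Other genes given without a call (Gclc, Gclm, Slc7a11, Keap1 and Nqo1), the markers and the shared rows were named after their values were seen. Same-numbered WT and KO arrays deviated together from their group means, with correlations across genes of 0.11 to 0.26, all over 0.1, which met the rule for treating the numbers as pairs. Among the 12 pairs with different numbers, 2 were over 0.1 too. The main fit nonetheless had genotype as its only term, and the replicate block was run as an alternative. With the block 5046 genes passed instead of 4792, and the SE was 0.42 for Gstp3 and 0.17 for Gsto1. Protein sequences were not used here.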

Additional observations from a re-analysis of the deposited data

Results flagged for a closer look

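Of 98 groups of 4 arrays, those of the 49 named genes in each genotype, 5 held an array far from the other 3, and chance gives about 1 in 20. Among the members, Gstm2 read 5.10 in WT 2, against 5.95 to 6.10 in the other WT arrays, and Gstt1 read 5.15 in KO 4, the KO female. Outside them, Jun read 6.22 in KO 2, Hmox1 read 5.11 in WT 2 and Ces1g read 1.70 in KO 1.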

How the results depend on the processing

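The KO minus WT difference of Gstp3 stayed between 3.32 and 4.36 and that of Gsto1 between 0.94 and 1.55 in all alternatives run, and neither moved by more than the spread between replicates. With repeated quantile normalization 2378 genes passed (1228 higher), with 1 call in the use and reduction list, 1 among regulators and 3 among NRF2 targets. The differences were then 0.091 for Gstp2, -0.43 for Gstm1, -0.68 for Gstm2, -0.61 for Gsta4 and -0.39 for Gstt1, and 2 members had all KO arrays above WT. With cyclic loess 2699 passed (1521 higher), with 1, 2 and 3 calls in those lists. The differences were then 0.10 for Gstp2, -0.39 for Gstm1, -0.68 for Gstm2, -0.56 for Gsta4 and -0.36 for Gstt1, again with 2 members above WT. The cause was not tested. After median centring 791 genes were lower. Among males only, with 3 arrays per genotype, 915 passed (770 higher, 145 lower), with 0 calls in the further transferases, 0 in use and reduction, 0 in export, 2 among regulators and 1 among NRF2 targets. With the replicate block 4 further transferases passed instead of 1, and Maff and Ces1g lost their call. Among genes with a mean of at least 4, 2834 of 6264 passed, a larger share than the 21.6% of all genes. Of these 291 were lower, and 0 were in export. Leaving out each array in turn gave 2240 to 6070 genes, 1781 to 3713 higher and 459 to 2357 lower, and 0 to 5 calls in the further transferases, 2 to 4 in synthesis, 1 to 3 in use and reduction, 3 to 5 in export and 1 to 5 among regulators. Of 558 alternatives for 34 single genes outside the members, 481 kept their side of the threshold, 66 lost a call and 11 gained one. Of the 481, 473 kept their sign and 8 turned, all of them in 4 genes that did not pass (Gstk1, Gstm4, Gstt3 and Gsto2). The planned comparison of protein sequences was not run. Signal over background is unknown for each row.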
